A study of Rattus norvegicus with 3 samples.

Results

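The peaks described here are the 4247 narrow H3K4me3 peaks of rat round spermatids that touched no H3K9me3 peak. They were selected from the deposited H3K4me3 peak list by 3 conditions: a place on chromosomes 1 to 20, a width under 1500 bp, and no shared base with any of the 48148 peaks of the H3K9me3 list on the same chromosomes. They made up 56.1% of the 7572 H3K4me3 peaks on these chromosomes (95% Wilson interval 55.0 to 57.2%) and 42.7% of the covered length, 3663 of 8579 kb. Both lists come from chromatin immunoprecipitation and sequencing (ChIP-seq) of round spermatids from testes of untreated Sprague-Dawley rats, with 1 library precipitated for H3K4me3 and 1 for H3K9me3. Another library, made without antibody, was not analysed here. The naming of the lists couples each mark with the word negative, and reading that library as the control of both lists is an assumption that the labels do not state.

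Round spermatids are the haploid germ cells between meiosis and the elongation of the sperm head. Trimethylation of lysine 4 on histone H3 (H3K4me3) marks the nucleosomes around the start sites of active genes and of many CpG-rich promoters, and the start site itself is often left free of nucleosomes, with marked nucleosomes on both sides. In mouse germ cells it is also found at promoters of silent developmental genes. Trimethylation of lysine 9 (H3K9me3) is typical of heterochromatin and of silenced repeats. Whether the peaks described here lie on promoters was not examined, because the gene and promoter tables used here follow another rat assembly (GRCr8) than the rn6 coordinates of the lists. For the same reason, regions are given by coordinates without gene names or sequence, and the labelled cell type was not checked against marker genes.

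With 1 library per mark there was no replicate error, and the selection used both lists, so the contrasts below are descriptions without tests. Intervals at the 95% level (Wilson for shares, exact Poisson for densities, order statistics for medians) cover counting error alone and take each peak as independent of the others. The lists hold no read counts, and the depth of the libraries is unknown. The score is the authors' own value for each peak, on a scale that no header states, and it ranks peaks within the H3K4me3 list.

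The narrow peaks off H3K9me3 were the low-scoring class of the list. Their median score was 39.2 (38.6 to 39.7), against 138 (134 to 143) for the 937 peaks of at least 1500 bp off H3K9me3, called broad here, and 55.6 (53.7 to 57.6) for the 1933 narrow peaks on H3K9me3. The lowest score was 30, which is the floor of the list, and 2223 of the peaks (52.3%) lay under 40. A score of at least 50 was reached by 1229 of them (28.9%, 27.6 to 30.3%), against 935 of the 937 broad peaks off H3K9me3 and 1104 of the narrow peaks on H3K9me3 (57.1%, 54.9 to 59.3%). A score of at least 100 was reached by 140 (3.30%, 2.80 to 3.88%), against 75.5% (72.6 to 78.1%) of the broad peaks and 22.9% (21.05 to 24.8%) of the narrow peaks on H3K9me3. The width limit bears on the contrast with broad peaks, since score rose with width over all 7572 H3K4me3 peaks (Spearman's rho 0.75). Width, which was used in the selection, did not separate the narrow classes, with a median of 809 bp off H3K9me3 (quartiles 658 and 1035 bp) and 805 bp on it (quartiles 652 and 1024 bp).

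**Figure D1:**
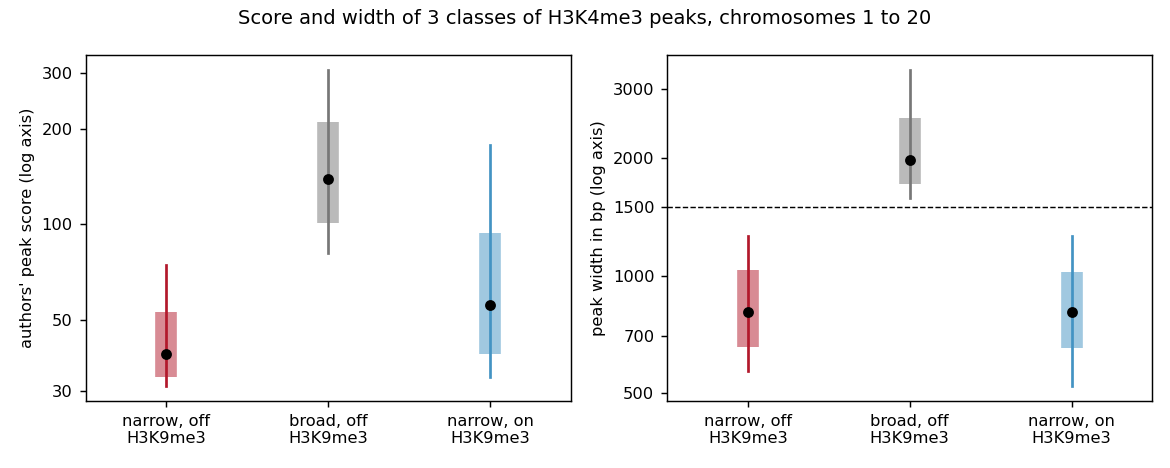
Score (left panel) and width (right panel), both on log axes, of 4247 narrow peaks off H3K9me3, 937 broad peaks off H3K9me3 and 1933 narrow peaks on H3K9me3. Dots are medians, thick bars run between the quartiles, thin lines run from the 10th to the 90th percentile, and the dashed line is the 1500 bp limit. The narrow peaks off H3K9me3 have the lowest scores, with a 90th percentile of 74.2, below the broad peaks' 10th percentile of 81.4. The width limit bears on this contrast with broad peaks.

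Within the class, score and width moved together. Spearman's rho was 0.74 across the 4247 peaks, a description of peaks from a single library. Peaks under 600 bp (566 in all) had a median score of 32.9, and those from 1200 to under 1500 bp (576 in all) had 73.9 (71.8 to 76.0). The share with a score of at least 50 was 2.83% in the narrowest of the 5 width classes, and 87.5% in the widest.

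The 1500 bp limit cut through a continuous range. Just inside it, the 164 peaks of at least 1400 bp had a median score of 82.3 (77.8 to 89.2), and just outside it the 116 peaks off H3K9me3 from 1500 to under 1600 bp had 91.2 (86.9 to 99.7). The 3 peaks nearest the limit on the inside, 2 of 1499 bp and 1 of 1498 bp, had scores of 124, 79.7 and 66.6. The 3 nearest outside it were each 1501 bp wide with scores of 114, 88.8 and 88.8. Scores just inside and just outside the limit thus overlapped.

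The strongest narrow peaks off H3K9me3 scored high within the list but far below its top. The 90th percentile of all 7572 scores was 186. The highest was 3198 and belonged to a narrow peak on H3K9me3. Among the narrow peaks off H3K9me3, the highest score was 243 and ranked 518th among all 7572 peaks. It belonged to a 1274 bp peak at 40273147 to 40274420 of chromosome 7. Next came the peak from 130540481 to 130541760 of the same chromosome and the one from 67092228 to 67093671 of chromosome 15, both with a score of 235. The fourth, at 4188900 to 4190175 of chromosome 20, scored 215, and no other narrow peak off H3K9me3 passed 200. A score of 194 followed on chromosome 11 (49762527 to 49763642), then 190 on chromosome 7 (124234871 to 124236178). The last 4 of the top 10 scored 179.5, 179.3, 168 and 159.7. In that order, they lay on chromosomes 2 (192779382 to 192780851), 15 (58656478 to 58657903), 10 (76377381 to 76378708) and 1 (37724159 to 37725642). All 10 were at least 1116 bp wide and at least 26.4 kb from an H3K9me3 peak. Of these 10, 6 had another narrow peak off H3K9me3 within 602 bp, and the other 4 had none nearer than 41.3 kb.

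Neighbouring narrow peaks lay either very close together or far apart. The median gap to the next narrow peak off H3K9me3 was 306 kb (282 to 332 kb), with quartiles of 65.6 and 813 kb, over 4227 gaps. The distribution had a broad mode between 316 kb and 1 Mb and a second, smaller mode below 2 kb. Of the 581 gaps of 5 kb or less, 174 were 200 bp or less, 314 were 500 bp or less and 412 were 1 kb or less. In steps of 500 bp, the number of gaps was 314, 98, 60 and 35 up to 2 kb, and 6 between 4.5 and 5 kb. On a log scale the number per bin was lowest between the modes at 3.16 to 5.62 kb, with 47 gaps, which is the range that holds the 5 kb limit used for pairing.

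**Figure D2:**
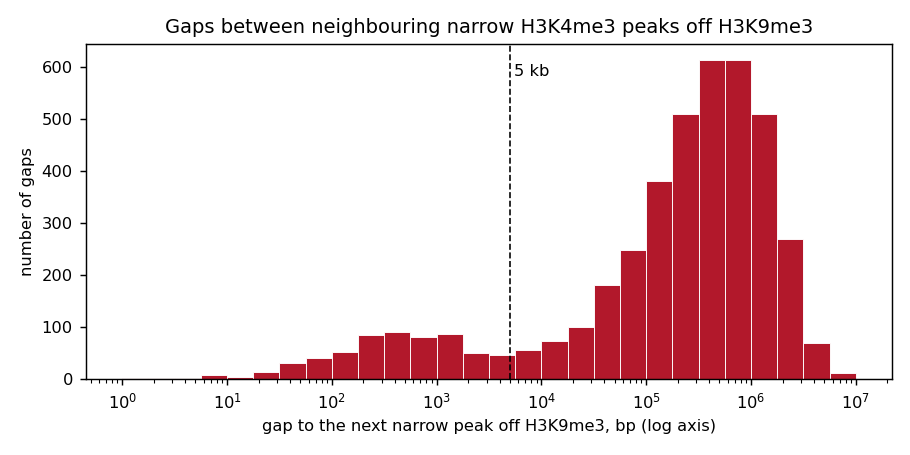
Number of gaps between neighbouring narrow H3K4me3 peaks off H3K9me3 (vertical axis) by gap length in bp (log axis, 4 bins per factor of 10), over 4227 gaps on chromosomes 1 to 20. The dashed line marks the 5 kb pairing limit, which lies in the trough of 47 gaps between a mode below 2 kb and a mode between 316 kb and 1 Mb.

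Pairing was common but covered a minority of the peaks. Another narrow peak off H3K9me3 lay within 5 kb of 1075 peaks (25.3%, 24.0 to 26.6%), against 59.5% (57.3 to 61.7%) for narrow peaks on H3K9me3 and 11.95% (10.03 to 14.2%) for broad peaks off it, each counted within its own class. These shares also depend on the size and spacing of each class. With H3K4me3 peaks of any class counted as neighbours, the share was 32.6% (31.2 to 34.1%) for the narrow peaks off H3K9me3, against 42.2% (39.0 to 45.3%) for the broad peaks off it and 67.9% (65.8 to 69.9%) for the narrow peaks on it. The order of narrow and broad peaks off H3K9me3 thus depended on which neighbours were counted. A further 311 peaks (7.32%) had no narrow partner but lay within 5 kb of an H3K4me3 peak of another class. The remaining 2861 (67.4%, 65.9 to 68.8%) had no H3K4me3 peak of any class within 5 kb and are called single here.

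Paired peaks were wider and scored higher than single ones. Their median score was 47.9 (46.4 to 49.2) and their median width 916 bp (897 to 935 bp), against 36.4 (35.9 to 36.8) and 768 bp (755 to 784 bp) for single peaks. The 311 peaks beside another class lay between, with a median score of 43.1 (40.9 to 46.1). A score of at least 50 was found in 45.4% (42.4 to 48.4%) of paired peaks and 21.8% (20.3 to 23.4%) of single peaks. The paired share rose through the score classes, from 12.8% of peaks scoring 30 to 35, through 31.7% of those scoring 40 to 50, to 47.1% (39.1 to 55.4%) of the 140 peaks scoring at least 100.

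The contrast in score was also present among peaks of like width. Within each of the 5 width classes, paired peaks had the higher median score. At 800 to under 1000 bp it was 46.5 (44.2 to 48.0) for 316 paired peaks and 39.5 (38.9 to 40.4) for 631 single peaks. From 1200 bp up it was 78.9 (75.2 to 80.7) for 211 paired peaks and 71.4 (68.6 to 73.8) for 313 single peaks. The contrast was smallest under 600 bp, at 33.8 (32.9 to 35.2) and 32.7 (32.5 to 32.9), where the intervals met. The share of paired peaks was 13.6% under 600 bp and 18.4% up to 800 bp. It was 31.0% up to 1000 bp, 32.7% up to 1200 bp and 36.6% above that.

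**Figure D3:**
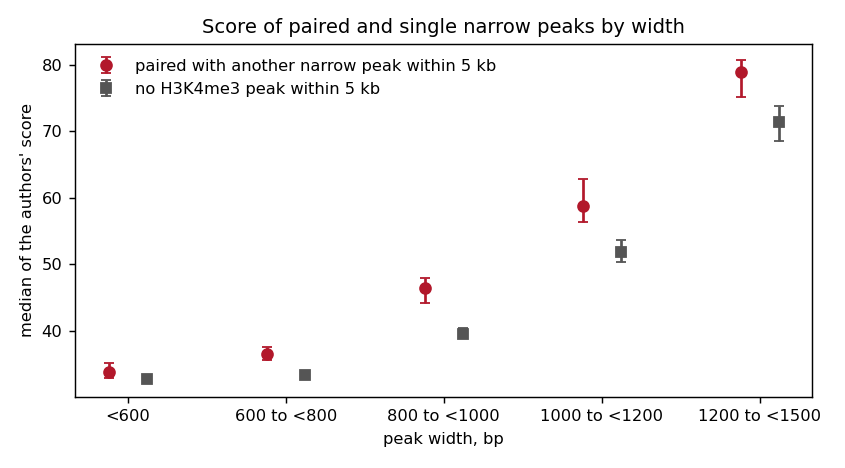
Median score (vertical axis) of narrow H3K4me3 peaks off H3K9me3 by width class in bp (horizontal axis), for peaks with another such peak within 5 kb (circles) and for peaks with no H3K4me3 peak within 5 kb (squares). Bars are 95% order-statistic intervals of the median and cover counting error only. Circles lie above squares in all 5 classes, by most from 1200 bp up (78.9 and 71.4) and by least under 600 bp (33.8 and 32.7).

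Most groups of close neighbours were simple pairs. Joining peaks with gaps of 5 kb or less gave 3666 units, of which 3172 were 1 peak, 418 were pairs, 67 held 3 peaks, 7 held 4 and 2 held 5. The unit of 5 on chromosome 4 ran from 100207852 to 100213794, with gaps of 95, 76, 60 and 638 bp and scores of 33.3, 65.3, 35.8, 53.0 and 62.4, and lay over 967 kb from any H3K9me3 peak. The unit of 5 on chromosome 14, from 21668570 to 21681689, was looser, with gaps of 270 to 3653 bp. Its peaks were only 165 to 1906 bp from H3K9me3 peaks, and 4 of its 5 scores were between 34.2 and 40.3. In the 67 units of 3, the middle peak had the highest score in 24 (35.8%, 25.4 to 47.8%) and the lowest in 13.

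Measured from outer edge to outer edge, pairs were longer than broad peaks by the median. The median outer length of the 581 neighbouring pairs was 2446 bp (quartiles 2099 and 3080 bp), against a median width of 1981 bp (quartiles 1721 and 2536 bp) for the broad peaks off H3K9me3. Of these pairs, 565 (97.2%) reached the 1500 bp limit as a unit. The outer length sums both widths and the gap, and paired peaks had a median width of 916 bp. Reaching the limit was thus largely set by this sum, which also enters the comparison with broad peaks. In 26 of the 581 pairs, an H3K4me3 peak of another class lay in the gap. The 174 pairs with gaps of 200 bp or less had a median outer length of 2086 bp, closer to the broad peaks, and a median gap of 85.5 bp.

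The scores within a pair differed somewhat more, as a ratio, than those of distant neighbours. The median of the higher score was 61.0 and that of the lower 39.6, and the median ratio of higher to lower, which cannot be under 1, was 1.41. For the 3646 neighbours more than 5 kb apart, the medians were 47.7 and 33.5 and the ratio was 1.28. Both sets are cut at the score floor of 30, and the distant neighbours lay nearer to it, so the ratios are not strictly comparable. In 129 pairs both partners scored at least 50, in 283 only 1 did and in 169 neither did. Across pairs, the scores of the partners were nearly unrelated. Spearman's rho was 0.045 over all 581 pairs and 0.078 over the neighbours more than 5 kb apart. It was 0.017 over the 418 pairs with no further narrow peak off H3K9me3 within 5 kb. Of these 418, 18 had an H3K4me3 peak of another class in the gap. All points come from 1 library, and both partners had to be under 1500 bp to be counted. The partner at the lower coordinate was the higher one in 287 of 581 pairs (49.4%). The higher score declined with distance, with medians of 68.3 at gaps of up to 200 bp, 61.8 at 200 bp to 1 kb, 56.4 at 1 to 2 kb and 51.7 at 2 to 5 kb. The lower score had medians of 41.6, 39.3, 36.5 and 37.9 in the same order, without a steady decline. Widths were not compared between these gap classes.

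The pairs with the largest summed scores show both balanced and unequal forms. The highest sum, 270, came from 130540481 to 130541760 and 130542208 to 130542825 of chromosome 7, with scores of 235 and 35.6 across a gap of 447 bp. The next pair, at 148197574 to 148198866 and 148198959 to 148200163 of chromosome 4, was more even, with 108 and 154 across 92 bp. Further pairs lay on chromosome 6 from 26516175 to 26519633 (158 and 91.0 across 649 bp) and on chromosome 5 from 140021481 to 140024492 (135 and 110 across 229 bp). The fifth lay on chromosome 10 from 56509460 to 56512403 (115 and 124 across 51 bp). An H3K9me3 peak lay in the gap of 15 of the 581 pairs.

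Narrow peaks also flanked broad ones. Of the 1386 narrow peaks with any H3K4me3 peak within 5 kb, the nearest was narrow and off H3K9me3 for 986 (71.1%), broad and off H3K9me3 for 288 (20.8%), narrow and on H3K9me3 for 83 (5.99%) and broad and on H3K9me3 for 29 (2.09%). Among the other H3K4me3 peaks of the list, these 4 classes made up 56.1%, 12.4%, 25.5% and 6.01%. Both classes off H3K9me3 were thus above their share as nearest neighbours and both classes on it below. The selection bears on this contrast, since narrow peaks on and off H3K9me3 lay largely in different windows. Windows with at least 5% under H3K9me3 peaks held 70.8% of those on it and 6.10% of those off it. How far the selection fixes the contrast was not tested. In all, 361 narrow peaks (8.50%) lay within 5 kb of a broad peak off H3K9me3, with a median score of 46.0 (43.5 to 49.1) and a median width of 906 bp. They stood beside 303 of the 937 broad peaks (32.3%, 29.4 to 35.4%), on both sides in 22 cases. The broad peaks with such a neighbour had a median score of 146 (134 to 155), and the 634 without one had 137 (130 to 142), with overlapping intervals.

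The peaks were spread over all 20 autosomes at 1.62 per Mb on average, over a summed span of 2615 Mb. The density was highest on chromosome 10, at 2.30 per Mb (2.03 to 2.60, 259 peaks), followed by chromosomes 20 and 12 at 2.08 and 2.07 per Mb. It was lowest on chromosome 13, at 1.09 per Mb (0.906 to 1.30, 124 peaks), and next lowest on chromosome 2, at 1.18 per Mb (1.06 to 1.32, 315 peaks). In the order of densities, the interval of each chromosome overlapped that of the next. The intervals of chromosomes 7, 10, 12 and 20 lay above the average, and those of chromosomes 2 and 13 below it. Chromosome 13 was sparser in its first 35 Mb, a region dense in H3K9me3 peaks that was set apart after the data were seen. That region held 7 narrow peaks, or 0.200 per Mb (0.0804 to 0.412). The remainder held 117, or 1.48 per Mb (1.23 to 1.78), an interval that includes the average. Without the first 35 Mb, chromosome 2 had the lowest density. The selection fixes part of this contrast, since peaks that touch H3K9me3 are not counted.

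**Figure D4:**
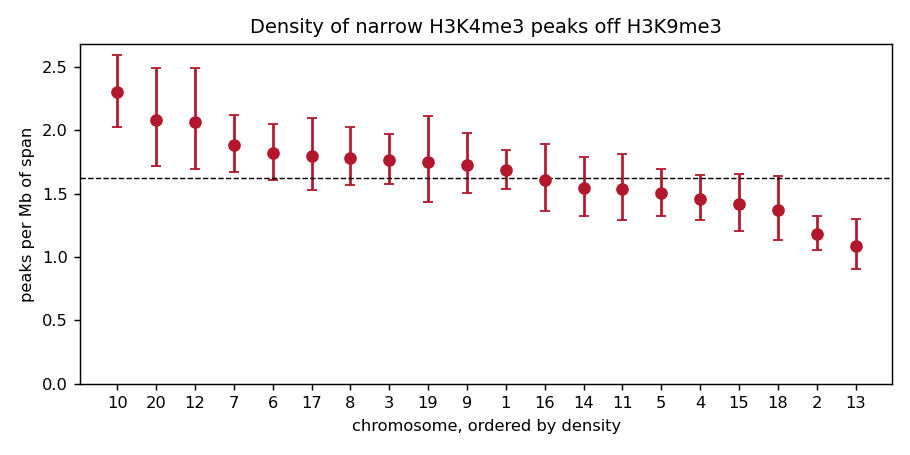
Narrow H3K4me3 peaks off H3K9me3 per Mb (vertical axis) on chromosomes 1 to 20 (horizontal axis, ordered by density). Dots are densities over the span to the last listed peak, bars are exact 95% Poisson intervals, and the dashed line is the average of 1.62 per Mb. Values run from 2.30 on chromosome 10 to 1.09 on chromosome 13, and each interval overlaps that of its neighbour in the order.

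The density of narrow peaks differed less between chromosomes than that of broad peaks. The highest density was 2.11 times the lowest for narrow peaks and 3.82 times for broad peaks off H3K9me3, which were fewer. Broad peaks were also densest on chromosome 10, at 0.675 per Mb, and sparsest on chromosome 11, at 0.177 per Mb. Chromosome 11 thus had 8.69 narrow peaks per broad one, against 3.26 on chromosome 13 and 3.41 on chromosome 10. Narrow peaks off H3K9me3 made up 77.7% (71.0 to 83.1%) of all H3K4me3 peaks on chromosome 11, 76.6% on chromosome 18 and 74.0% on chromosome 10. They made up 42.9% (37.0 to 49.1%) on chromosome 19, 44.1% on chromosome 16 and 44.8% on chromosome 1. This share also depends on how many H3K4me3 peaks of the other classes a chromosome holds. The densities of narrow peaks off H3K9me3 were 1.54, 1.37 and 2.30 per Mb on chromosomes 11, 18 and 10. On chromosomes 19, 16 and 1 they were 1.75, 1.61 and 1.68 per Mb, so a low share did not go with a low density.

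Both the median score and the paired share varied between chromosomes. The median score ran from 36.3 (34.8 to 39.1) on chromosome 15 to 43.8 (38.8 to 48.5) on chromosome 12, with overlapping intervals for these 2. The interval of chromosome 10, at 41.9 (39.8 to 44.5), lay above those of chromosome 15 and of chromosome 2, at 37.2 (36.4 to 38.7). The paired share was highest on chromosome 20, at 35.9% (27.8 to 44.9%, 42 of 117), and chromosome 7, at 35.4% (29.98 to 41.2%, 97 of 274). It was lowest on chromosome 11, at 15.8% (10.7 to 22.8%, 22 of 139), and chromosome 15, at 17.2% (12.1 to 23.9%, 27 of 157). The intervals of the highest 2 did not meet those of the lowest 2.

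Along the chromosomes the narrow peaks off H3K9me3 were nearly even. With each span cut into 10 equal parts and summed over the 20 autosomes, every part held 8.57 to 11.8% of them. The first 20% of the span held 19.6% of these peaks, against 16.0% of the broad peaks off H3K9me3 and 41.8% of the narrow peaks on H3K9me3. The last 30% held 34.0%, against 39.2% of the broad peaks and 17.6% of the narrow peaks on H3K9me3.

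On the scale of 1-Mb windows, the peaks were moderately clustered. Of 2626 windows, 824 (31.4%) held none, 719 held 1, 495 held 2 and 184 (7.01%) held at least 5. These 184 windows contained 1178 peaks, or 27.7% of the total. The variance of the number per window was 2.10 times its mean. Counting each group of close neighbours once lowered this ratio to 1.501, and leaving out windows with at least 5% of their length under H3K9me3 peaks gave 2.02. The densest 1% of windows, 26 in number, held 279 peaks (6.57%, 5.86 to 7.35%) and lay on 15 chromosomes, with 4 each on chromosomes 1 and 7.

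**Figure D5:**
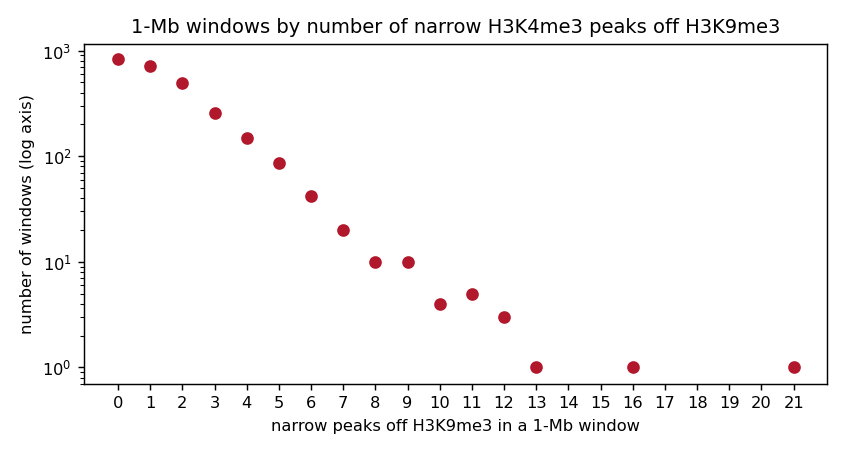
Number of 1-Mb windows on chromosomes 1 to 20 (vertical axis, log scale) by the number of narrow H3K4me3 peaks off H3K9me3 they hold (horizontal axis), over 2626 windows. The points fall from 824 windows without a peak to single windows with 13, 16 and 21 peaks.

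The densest window, 20 to 21 Mb of chromosome 7, held 21 narrow peaks, which formed 11 groups. Their median score was 42.8 and their median width 710 bp, 16 of them were paired, and their median distance to H3K9me3 was 9.60 kb. On chromosome 9, the window from 10 to 11 Mb held 16 peaks, of which 11 were paired, with a median score of 49.4 and a median distance of 61.2 kb. On chromosome 1, that from 195 to 196 Mb held 13, of which 10 were paired, at a median distance of only 0.960 kb from H3K9me3. The window from 56 to 57 Mb on chromosome 10 held 12, of which 6 were paired, at a median distance of 127 kb. On chromosome 14, the window from 21 to 22 Mb also held 12, of which 7 were paired, at a median of 38.3 kb. The length under H3K9me3 peaks was 31.0, 7.54, 29.5, 3.21 and 3.24 kb in these 5 windows, whereas the median window had 3.85 kb. Narrow peaks on H3K9me3 were also present in 3 of the 5, with 8 on chromosome 7, 9 on chromosome 1 and 2 on chromosome 14.

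Peaks in fuller windows scored higher. The median score was 35.1 (34.7 to 35.8) for the 719 peaks that were alone in their window, 37.2 for those in windows of 2, 40.4 for windows of 3 or 4, 42.7 for windows of 5 to 7 and 44.6 (42.5 to 47.4) for the 351 peaks in windows of at least 8. The paired share moved with this order, at 0.139%, 14.9%, 30.1%, 39.2% and 54.7%, and a peak alone in its window can be paired only across a window border. Median width also rose over most of this order, at 745, 786, 821.5, 870 and 868 bp. Scores of peaks of like width were not compared between fuller and emptier windows. The numbers in adjacent windows were weakly related, with a Spearman's rho of 0.13 over 2606 adjacent pairs. Across the 2626 windows, rho with the number of broad peaks off H3K9me3 was 0.31, with the number of narrow peaks on H3K9me3 0.013, and with the length under H3K9me3 peaks -0.16. These are descriptions of windows of the same 2 libraries.

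Stretches without narrow peaks off H3K9me3 included both H3K9me3-rich and H3K9me3-poor sequence. The longest run of empty windows was 0 to 18 Mb of chromosome 13, where H3K9me3 peaks covered 46.2% of the sequence. It was followed by a run on chromosome 14 from 47 to 55 Mb with 15.3% covered and a run on chromosome 6 from 13 to 20 Mb with 11.9% covered. In that order, these H3K9me3-rich runs held 13, 7 and 3 narrow peaks on H3K9me3, which the selection leaves out. The run on chromosome 14 also held 1 broad peak off H3K9me3. The runs from 72 to 79 Mb of chromosome 15 and from 85 to 91 Mb of chromosome 7 were covered only to 0.675% and 0.928%, and neither held an H3K4me3 peak of the broad class off H3K9me3 or of the narrow class on it. Of the 273 windows with at least 5% under H3K9me3 peaks, 54.6% had no narrow peak off H3K9me3, against 28.7% of the other 2353. Those 273 windows held 259 such peaks (6.10%), against 3.84% of the broad peaks off H3K9me3 and 70.8% of the narrow peaks on H3K9me3. The selection fixes part of this contrast, since an H3K9me3-rich window leaves less sequence in which a peak can miss H3K9me3.

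The label of peaks away from H3K9me3 holds in the sense of no overlap, and for most peaks in a wider sense. The median distance to the nearest H3K9me3 peak was 143 kb (135 to 150 kb), with quartiles of 45.5 and 323 kb. However, 295 peaks (6.95%, 6.22 to 7.75%) lay under 5 kb from H3K9me3, including 128 (3.01%) under 1 kb, and the closest lay 3 bp away. The broad peaks off H3K9me3 were farther from it, with a median of 208 kb (187 to 227 kb) and 1.60% (0.973 to 2.62%) under 5 kb. The selection bears on this contrast, since a wider peak close to H3K9me3 more readily touches it and is then left out. How far it does so was not tested. The narrow peaks under 1 kb from H3K9me3 had a median score of 40.1 (37.5 to 42.9) and a median width of 695 bp. The median score was 37.3 (35.9 to 39.4) at 1 to 5 kb, 36.2 (34.4 to 38.0) at 5 to 10 kb and 37.3 (36.4 to 38.7) at 10 to 50 kb. It was 39.9 (37.8 to 40.9) at 50 to 100 kb and 39.7 (39.1 to 40.6) at 100 to 500 kb. The score was thus lowest at 5 to 10 kb, with an interval that overlapped those at 1 to 5 and 10 to 50 kb. The intervals at 5 to 10 and 10 to 50 kb lay below that at 100 to 500 kb. Median width rose with distance, at 738 bp for 1 to 5 kb, 746 bp for 5 to 10 kb and 831 bp for 100 to 500 kb. Scores at like width were not compared by distance. Beyond 500 kb, the peaks had a median score of 40.5 (38.6 to 42.1) and a median width of 846 bp. The paired share was 32.0% under 1 kb, 20.9% at 10 to 50 kb and 31.3% beyond 500 kb, with no steady trend.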

How the data were processed

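The authors deposited 1 peak list per mark, without header or read counts, and the peak names in both are those of the caller MACS. Bowtie 1.2, FastQC, bcl2fastq and the build rn6 appear, without roles, in the submitters' processing notes. For the control, the thresholds and the treatment of duplicate or multiply matching reads, nothing is stated in the labels or lists. The score column is the authors' own peak score, of unstated scale. Depth is unknown, and precision is limited by the number of peaks.

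Widths are end minus start, and starts are printed counted from 1. Gaps run from edge to edge. Windows and densities use the span to the largest listed end in either list, and a peak counts in the window of its midpoint. Interval functions were tested on simulated data. The tools were Python 3.11.15 with scipy 1.17.1, pandas 2.3.3, matplotlib 3.10.9 and numpy 2.4.6. Named regions are the 10 highest-scoring peaks, 5 densest windows, 5 pairs with the highest summed score, longest groups, 3 peaks either side of the width limit, and the 5 longest runs of empty windows, which were added after their values were seen. The peak class, the lists and the alternatives were chosen with earlier results of these data known. The planned naming of genes was not possible without an rn6 annotation.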

Additional observations from a re-analysis of the deposited data

Results flagged for a closer look

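Peaks under 1500 bp and off H3K9me3 were also listed outside the 20 autosomes, on sequences that the selection left out. On chromosome X, 17 of 68 H3K4me3 peaks met both conditions, with a median score of 34.1 and a highest score of 79.2. Mitochondrial DNA, which carries no histones, held 4 such peaks among its 5 H3K4me3 peaks, with scores from 36.5 to 50.2 and a median of 44.3. Sequences not placed on a chromosome held 3 such peaks among 37, with scores from 77.9 to 154.9 and a median of 88.6. The autosomal narrow peaks off H3K9me3 had a median score of 39.2, above the median on X and below the other medians. How many autosomal peaks arise without the mark was not tested.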

How the results depend on the processing

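Choices were changed 1 at a time, and leaving out the first 35 Mb of chromosome 13 was added after the data were seen. Limiting the width to 1000 bp gave a median score of 35.1, a median gap of 496 kb, a paired share of 14.6%, 37.9% of windows without a peak, densities from 0.738 (chromosome 13) to 1.56 per Mb (chromosome 10) and a median distance to H3K9me3 of 135 kb. A limit of 2000 bp gave 41.2, 263 kb and 29.4% for the first 3 of these, 29.6% of windows without a peak and a highest density of 2.61 per Mb. Requiring 5 kb to H3K9me3 gave a median gap of 338 kb, 33.6% of windows without a peak and a median distance of 161 kb. Keeping only scores at or above the list median of 49.2 left 1270 peaks with a median score of 64.7, a median gap of 818 kb, a paired share of 20.9%, 70.2% of windows without a peak and 10.9% of peaks in the densest 1% of windows. Densities then ran from 0.282 (chromosome 2) to 0.870 per Mb (chromosome 10), and the median distance was 155 kb. Counting pairs at 2 kb, at 10 kb or with any H3K4me3 peak gave paired shares of 22.2%, 27.9% and 32.6%, and the median gap to the next H3K4me3 peak of any class was 218 kb. With 5-Mb windows, 1.87% held no peak and the densest 1% held 3.39% of the peaks. Other combinations stayed inside the counting interval of the reported value or, for peak numbers, within 1.5 times of it. Stricter rules leave fewer peaks, and a pair then needs both partners to pass. No paired analysis was possible because each mark has 1 library, and replicates could not be left out for the same reason. Unknown depth limits which weak peaks could be listed.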
